A study of Mus musculus with 9 samples.

Results

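Interferon-beta, the genes of its receptor and genes known to respond to interferon were described together as a set of 45 mouse genes, chosen by gene symbol. Of these, 43 were among the 14771 genes with an expression value, and 41 were among the 11281 genes with counts high enough to test. Mx1 and Mx2, which encode antiviral GTPases, were not analysed here, and Ifi44 and Zbp1 had too few counts to test. RNA was sequenced from MH-S, an established mouse cell line derived from alveolar macrophages, with 3 libraries in each of 3 groups. By the treatment protocol, SUR cells received 200 µM suramin and 1 µg/ml lipopolysaccharide (LPS) for 4 h, LPS cells received 1 µg/ml LPS for 4 h, and CON cells received culture medium. The label of each SUR sample names suramin without LPS, so the reading of SUR as suramin with LPS rests on the protocol. Suramin was then never given without LPS, and opposition to LPS and suramin's own effect on a gene cannot be told apart. Suramin is a polyanionic drug, and the series set out to relate it to pyroptosis, a lytic inflammatory cell death.

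Interferon-beta is the type I interferon that macrophages make when LPS engages the receptor TLR4. The adaptor TRIF and the kinase TBK1 activate the transcription factor IRF3, which acts with NF-kappaB and AP-1 factors at the Ifnb1 promoter. Secreted interferon binds the receptor IFNAR1/IFNAR2, and the kinases JAK1 and TYK2 then phosphorylate STAT2, which joins IRF9 in a complex that binds the interferon-stimulated response element (ISRE) of interferon-stimulated genes, whose products block viral entry, translation and replication, sense foreign nucleic acid or tune the response. Some of these genes are also induced directly by IRF3, without secreted interferon.

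The promoters of 6 members show both kinds of element and the limit of reading a response from them. RefSeq's promoter table for GRCm38.p6, the build of the deposited values, held windows for 35 of the 43 members, each of 300 bases from 250 before to 50 after an annotated start. Ifnb1, Ifit1, Isg15 and Rsad2 are shown as examples of members that rose with LPS, and Oas1a and Bst2 because they hold the same element and their transcripts were not called. Capitals mark matches, on either strand, to the ISRE core GAAA-NN-GAAA and the kappaB motif GGGA-NN-TTCC, and in Ifnb1 to the kappaB motif and the shorter IRF motif AANNGAAA, which every ISRE core contains.
Ifnb1: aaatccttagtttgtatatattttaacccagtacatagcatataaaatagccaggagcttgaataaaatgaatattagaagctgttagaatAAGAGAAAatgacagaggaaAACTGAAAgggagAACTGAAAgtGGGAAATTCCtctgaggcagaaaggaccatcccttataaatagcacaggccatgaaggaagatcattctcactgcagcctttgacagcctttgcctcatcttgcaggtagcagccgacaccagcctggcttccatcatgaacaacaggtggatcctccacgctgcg
Ifit1: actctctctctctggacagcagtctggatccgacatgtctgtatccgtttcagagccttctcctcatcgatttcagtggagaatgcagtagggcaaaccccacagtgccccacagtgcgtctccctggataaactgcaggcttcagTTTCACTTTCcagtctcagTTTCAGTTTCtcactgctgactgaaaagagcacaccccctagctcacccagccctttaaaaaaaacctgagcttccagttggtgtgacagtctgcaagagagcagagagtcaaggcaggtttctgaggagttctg
Isg15: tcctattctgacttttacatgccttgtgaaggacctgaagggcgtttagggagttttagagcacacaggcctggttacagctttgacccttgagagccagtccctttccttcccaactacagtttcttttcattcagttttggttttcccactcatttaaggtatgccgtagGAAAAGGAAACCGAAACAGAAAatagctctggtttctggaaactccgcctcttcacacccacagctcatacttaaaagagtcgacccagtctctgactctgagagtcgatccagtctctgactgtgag
Rsad2: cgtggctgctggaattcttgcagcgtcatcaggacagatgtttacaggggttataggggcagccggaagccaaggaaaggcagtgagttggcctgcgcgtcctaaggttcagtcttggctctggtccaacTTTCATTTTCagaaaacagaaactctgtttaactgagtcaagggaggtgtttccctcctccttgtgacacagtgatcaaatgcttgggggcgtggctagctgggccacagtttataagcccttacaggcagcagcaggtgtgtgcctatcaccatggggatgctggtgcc
Oas1a: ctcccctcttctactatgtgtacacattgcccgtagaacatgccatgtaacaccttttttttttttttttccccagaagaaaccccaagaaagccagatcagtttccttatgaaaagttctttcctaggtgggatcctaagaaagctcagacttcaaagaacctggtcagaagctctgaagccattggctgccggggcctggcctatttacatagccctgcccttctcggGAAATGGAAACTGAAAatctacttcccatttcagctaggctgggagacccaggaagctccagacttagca
Bst2: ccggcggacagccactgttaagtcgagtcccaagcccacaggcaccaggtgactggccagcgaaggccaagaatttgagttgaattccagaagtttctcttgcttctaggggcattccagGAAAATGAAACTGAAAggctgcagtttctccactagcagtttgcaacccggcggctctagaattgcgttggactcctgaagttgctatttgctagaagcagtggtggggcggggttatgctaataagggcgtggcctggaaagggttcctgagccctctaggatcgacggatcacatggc
These windows lie at chr4:88522745-88523044 on the minus strand (Ifnb1), chr19:34640639-34640938 on the plus strand (Ifit1), chr4:156200769-156201068 on the minus strand (Isg15), chr12:26456403-26456702 on the minus strand (Rsad2), chr5:120907476-120907775 on the minus strand (Oas1a) and chr8:71537423-71537722 on the minus strand (Bst2). The Ifnb1 window had no ISRE core. It held IRF motifs starting 159, 139 and 126 bases before the start and a kappaB motif starting 116 bases before it. Ifit1 held ISRE cores starting 104 and 85 bases before its start, Isg15 held 3 overlapping ones from 78 bases before, and Rsad2 held 1 at 120 bases before. Oas1a held overlapping cores starting 20 and 14 bases before its start, and Bst2 held overlapping cores starting 130 and 124 bases before.

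An ISRE core occurred in the windows of 7 of 14 members that rose at least 2-fold with LPS (50%) and of 6 of 18 members that were not called (33.3%), against 1079 of all 27025 genes in the promoter table (3.99%). The kappaB motif occurred in 3 of the 14 (21.4%: Ifnb1, Ifit2 and Isg20), in 1 of the 18 (5.56%: Ifitm3) and in 1.63% of all genes. The STAT-binding GAS motif TTCNNNGAA occurred in 2 of the 14 (14.3%), 6 of the 18 (33.3%) and 9.55% of all genes. The shorter IRF motif, added after the Ifnb1 window was seen, occurred in 11 of the 14, 12 of the 18 and 26.7% of all genes. All motifs were searched on both strands, a gene counted if any of its windows matched, and matches are letters in a window, not measured binding. Parp14, Rtp4, Parp9, Usp18, Dhx58, Ifi204, Oas2 and Zbp1 had no window in the table.

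**Figure D1:**
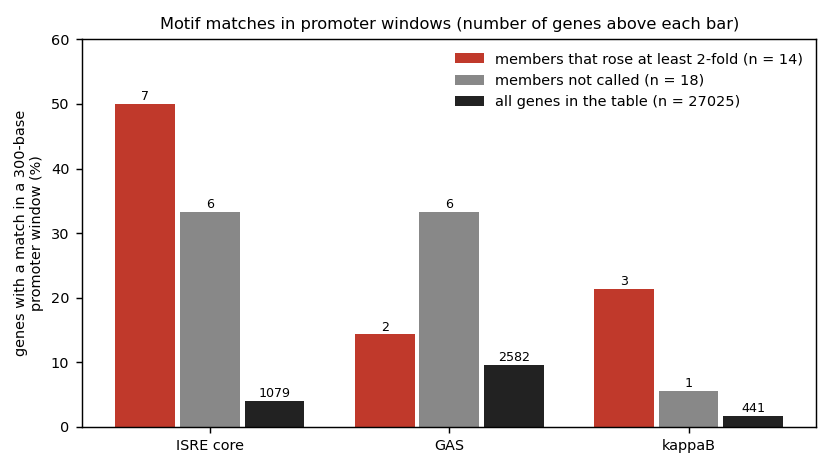
Share of genes (percent, from 0) with a match to the ISRE core, GAS or kappaB motif in a 300-base promoter window, for members that rose at least 2-fold with LPS, members not called and all genes of the table, with the number of genes above each bar. The ISRE core was found in 50%, 33.3% and 3.99% of these, so it was frequent in members of both kinds.

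Library totals lay between 15729402 and 16675250 counts. The second principal component of log2 CPM, with 27.4% of the variance, separated the libraries numbered 1 in every group from the rest, and same-numbered libraries deviated together. Fits with the replicate number as a block are therefore given where they change a call. On the first component, with 52% of the variance, LPS libraries lay at 35.1 to 39.7 and SUR libraries at -14.7 to -6.15. CON 1 lay at -9.9 there, among the SUR libraries, and CON 2 and CON 3 at -29.2 and -38.8. CON 1 thus stood apart from CON 2 and CON 3 over all tested genes, and also in the members that LPS raised, as described below. Of 22 macrophage markers 18 had a value, with summed levels of 5510 to 8450 CPM in SUR, 5940 to 9010 CPM in LPS and 5650 to 8250 CPM in CON libraries. Of the 22 listed, 14 had counts high enough to test. Among the listed markers, Marco, Siglecf, Chil3 and Pparg were at or near 0, with a highest group mean of 0.329 CPM (Pparg in SUR). Nearly all of the summed level thus came from other listed macrophage markers, whose levels are not given singly here. The low markers named do not describe the list as a whole. Siglech, a defining marker of plasmacytoid dendritic cells, which make much type I interferon, averaged 0.250, 0.345 and 0.377 CPM in SUR, LPS and CON. The 5 of 6 markers of that cell type with a value summed to 132 to 145 CPM in SUR, 119 to 143 CPM in LPS and 116 to 136 CPM in CON libraries. Nearly all of this was Tcf4 (79.3, 69.9 and 65.9 CPM in SUR, LPS and CON) and Bst2, itself a member. Summed markers of lymphocytes, neutrophils, epithelium and stroma reached at most 1.21 CPM in any library. No label says that the libraries came from separate cultures, so p-values measure the spread between these libraries, which may be technical. Fewer expressing cells and less RNA per cell cannot be told apart in these bulk samples.

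LPS raised a subset of the set and left the remainder near its CON level. Of 41 tested members 17 rose (41.5%) and 2 fell in LPS against CON, where 8.98% of all tested genes rose and 9.36% fell (edgeR's quasi-likelihood test, Benjamini-Hochberg adjusted over all tested genes at 0.05). Members that rose at least 2-fold numbered 16, which is 39.0% of the 41, against 3.43% of all tested genes. The remaining rise was that of Ifnar2, the falls were of Oas2 and Eif2ak2, and 22 members were not called. The median log2 fold change was 0.30 over the members and -0.01 over all tested genes. The filter on low counts asks for 3 libraries over its minimum, which Ifnb1 and Ifi205 met through their LPS libraries. Both genes thus entered the test by being high in LPS, so a rise in them is not independent of the filter. Without them 15 of 39 members rose and 2 fell.

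The strong responders and the remainder were separated by a gap. The 16 members had log2 fold changes from 1.4 (Isg20) to 4.96 (Ifnb1), apart from Ifi205, which had no count in CON and is given below as a bound, and their median was 2.87 with Ifi205 at that bound. By contrast, the 22 members not called lay between -0.16 (Oas3) and 0.44 (Ifi204), with a median of 0.08. Of these 22, 17 had an absolute log2 fold change under 0.2. All LPS libraries lay above all CON libraries in each of the 16 strong responders. This was so for 2 of the 22 (Usp18 and Parp9). The 16 were chosen by the same comparison, so these counts are descriptions. The share of all tested genes with such a separation is not given here. With the replicate block 24 members rose and 3 fell, where 20.1% of all tested genes rose and 21.7% fell. The 7 rises gained were of Usp18, Ddx58, Ifi204, Ifitm3, Parp9, Rnf213 and Ifnar1, with log2 fold changes of 0.11 to 0.44, and the fall gained was of Samhd1 (-0.14).

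**Figure D2:**
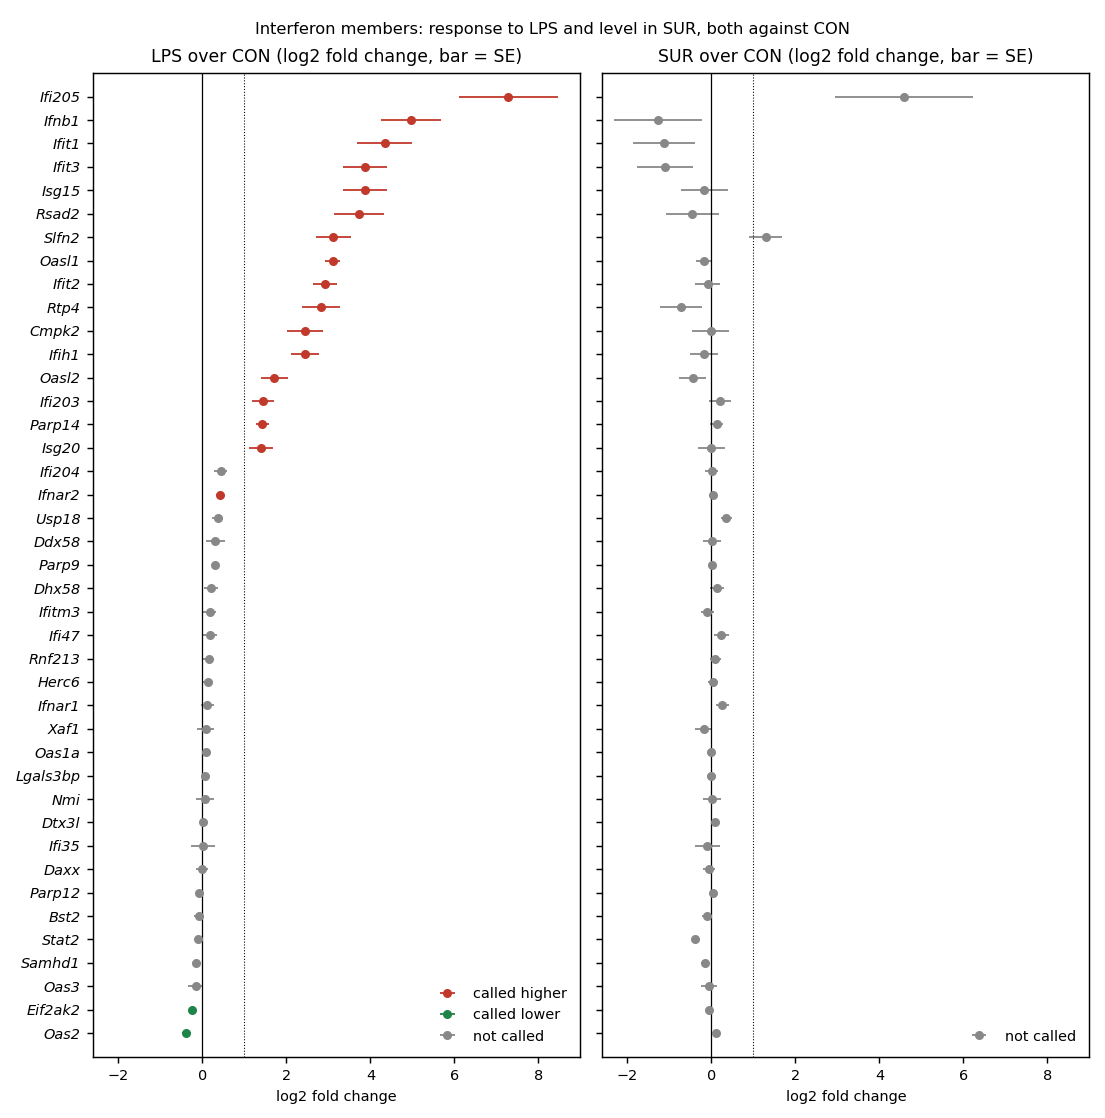
Log2 fold change of LPS over CON (left) and of SUR over CON (right) for the 41 tested members, ordered by the response to LPS; points are edgeR estimates, bars are standard errors, and the dotted line marks a 2-fold rise. In the left panel 16 members lie beyond the dotted line, and in the right panel no member was called. The Ifi205 points depend on the fit, since it had 0 counts in CON.

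In SUR against LPS 18 members fell (43.9%) and 1 rose, where 7.93% of all tested genes fell and 9.29% rose. The falls were of all 16 strong responders, Ifnar2 and Stat2, and the rise was of Oas2. Ifnb1 and Ifi205 met the filter on low counts through their LPS libraries, so falls in them are not independent of the filter either. Without them 16 of 39 members fell and 1 rose. The median log2 fold change was -0.29 over the members and -0.01 over all tested genes. The 16 fell by log2 fold changes of -1.24 (Ifi203) to -6.23 (Ifnb1), and every SUR library lay below every LPS library in each of them. For this separation, too, the share over all tested genes is not given here. With the replicate block 22 members fell and 3 rose, against 22.7% and 22.6% of all tested genes. Falls of Ddx58, Ifi204, Ifitm3 and Parp9 and rises of Eif2ak2 and Ifnar1 were gained in that fit. Both comparisons share the LPS libraries, so a member high in LPS by chance would differ in both.

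In SUR against CON edgeR called 0 members higher and 0 lower, where 0.39% of all tested genes were called higher and 0.0355% lower. At an unadjusted p under 0.05, 4 members differed, DESeq2 called 1 lower (Stat2) and limma-voom called 0. With the replicate block Usp18, Ifnar1 and Slfn2 were called higher and Stat2 and Samhd1 lower, 3 and 2 of 41 members, where 7.37% of all tested genes were called higher and 4.18% lower. The median log2 fold change was -0.01 over the members and -0.01 over all tested genes.

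Ifnb1, the gene of interferon-beta itself, was almost silent in CON and SUR cells. It stood at 0.461, 0.118 and 0.409 CPM (counts per 1000000 counts of its library, scaled by TMM) in SUR libraries 1 to 3, at 32.6, 22.3 and 21.4 CPM in LPS libraries and at 2.04, 0.365 and 0 CPM in CON libraries. The LPS libraries were all above 20 CPM and the others all near or under 2 CPM, with CON 1 the highest of those. The rise was 31.1-fold (log2 fold change 4.96, SE 0.714, edgeR adjusted p = 0.00146), and without CON 1 its log2 fold change was 7.09. Within numbers 1, 2 and 3 the log2 difference of LPS over CON was 3.92, 5.53 and 7.46, computed with 2 counts added, which limits it in CON 3 where Ifnb1 had 0 counts. In SUR the level was 75.2-fold lower than in LPS (log2 fold change -6.23, SE 0.804, edgeR adjusted p = 0.00121), resting on 8, 2 and 7 counts in SUR libraries. Ifnb1 met the filter on low counts through its LPS libraries, so the rise and this difference are not independent of the filter. Both calls held with no filter on low counts. In SUR against CON Ifnb1 had a log2 fold change of -1.27 (SE 1.04, edgeR adjusted p = 0.862), which turned to 0.84 without CON 1 (edgeR adjusted p = 0.802).

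The receptor genes behaved unlike the ligand and were well expressed in every group. Ifnar2, the chain that docks JAK1, stood at 63.8, 68.0 and 70.5 CPM in SUR, 76.6, 91.2 and 96.6 CPM in LPS and 65.0, 68.6 and 63.4 CPM in CON libraries. All LPS libraries lay above all SUR and CON libraries. It rose 1.34-fold in LPS (log2 fold change 0.42, SE 0.0900, edgeR adjusted p = 0.0107) and was 1.31-fold lower in SUR than in LPS (log2 fold change -0.39, SE 0.0899, edgeR adjusted p = 0.0182). The rise was not called on the deposited FPKM values (adjusted p up to 0.651 by limma), and the fall was also lost without LPS 2, LPS 3, SUR 1 or SUR 2 (edgeR adjusted p up to 0.0649, without LPS 2). Ifnar1, the chain that docks TYK2, stood at 160.6, 204 and 216 CPM in SUR, 144, 185 and 198 CPM in LPS and 139, 164 and 184 CPM in CON libraries. The groups overlapped, and library 1 was the lowest of each. Ifnar1 was not called in LPS against CON (log2 fold change 0.11, SE 0.157, edgeR adjusted p = 0.736) or in SUR against CON (0.26, SE 0.156, edgeR adjusted p = 0.744). With the replicate block it was called higher in LPS than in CON (edgeR adjusted p = 0.0394), in SUR than in LPS (0.0107) and in SUR than in CON (0.0024).

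**Figure D3:**
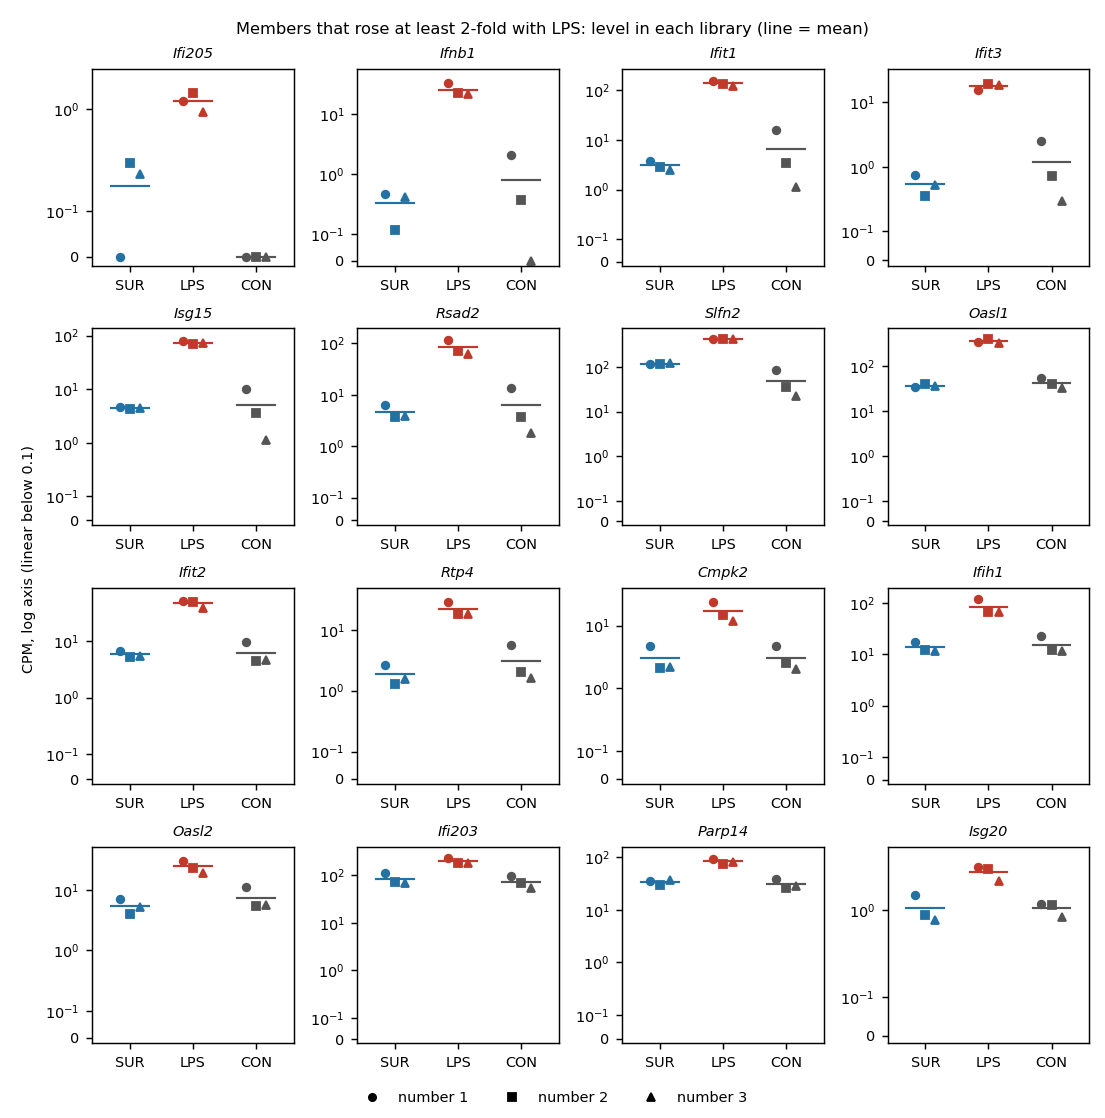
Level in each library (CPM, log axis, linear below 0.1) of the 16 members that rose at least 2-fold with LPS, in SUR, LPS and CON libraries; symbols give the replicate number and lines the group mean. The LPS libraries lie above all others in every panel, and CON 1 (circle) lies above CON 2 and CON 3 in 15 of 16.

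All 3 IFIT genes of the set, whose products bind RNA and block translation of viral messages, rose with LPS. Ifit1, the sensor of incompletely capped RNA, stood at 3.81, 2.90 and 2.46 CPM in SUR, 153.5, 134 and 121 CPM in LPS and 15.5, 3.47 and 1.13 CPM in CON libraries. Ifit3, which stabilises Ifit1 in human cells, stood at 0.749, 0.355 and 0.526 CPM in SUR, 15.5, 18.8 and 18.3 CPM in LPS and 2.51, 0.731 and 0.298 CPM in CON libraries. In both genes the LPS values were close together, CON 1 lay far above the other CON libraries, and the SUR values lay inside the CON range. Ifit1 rose 20.3-fold (log2 fold change 4.34, SE 0.656, edgeR adjusted p = 0.00189) and Ifit3 14.7-fold (3.88, SE 0.522, edgeR adjusted p = 0.00104). Without CON 1 the log2 fold changes were 5.90 and 5.09. In SUR against LPS Ifit1 fell 44.5-fold (log2 fold change -5.48) and Ifit3 31.8-fold (-4.99, edgeR adjusted p = 0.000767). Ifit2, which promotes cell death on overexpression, averaged 5.84 ± 0.851 CPM in SUR, 46.9 ± 7.37 CPM in LPS and 6.20 ± 2.92 CPM in CON (SD, n = 3 each). It rose 7.55-fold (edgeR adjusted p = 0.000199). In SUR against CON none of the 3 was called, with log2 fold changes of -1.14 for Ifit1, -1.11 for Ifit3 and -0.09 for Ifit2. Without CON 1 these turned to 0.41, 0.08 and 0.37, again not called.

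Isg15 rose, whereas the ligases Herc6 and Dtx3l and the protease Usp18 were not called. Isg15, a ubiquitin-like modifier, stood at 4.61, 4.26 and 4.56 CPM in SUR, 80.4, 69.5 and 71.7 CPM in LPS and 10.3, 3.65 and 1.13 CPM in CON libraries. The SUR libraries differed little from each other and lay inside the wide CON range, and the LPS libraries lay above both. It rose 14.7-fold (log2 fold change 3.87, SE 0.532, edgeR adjusted p = 0.00115), with 4.96 without CON 1, and was 16.5-fold lower in SUR than in LPS (edgeR adjusted p = 0.00139). Usp18, the protease that removes Isg15 and restrains the receptor at IFNAR2, averaged 14.6 ± 0.495 CPM in SUR, 14.7 ± 1.71 CPM in LPS and 11.4 ± 1.61 CPM in CON (SD, n = 3 each). Its LPS and its SUR libraries both lay above all CON libraries. It was not called in LPS against CON (log2 fold change 0.36, edgeR adjusted p = 0.0937) or in SUR against CON (0.35, edgeR adjusted p = 0.405), and with the replicate block it was called in both (0.0150 and 0.0455). Herc6, the ligase that joins Isg15 to proteins in mouse cells, had a log2 fold change of 0.14 in LPS against CON (edgeR adjusted p = 0.556). Dtx3l, a ubiquitin ligase that partners Parp9, stood at 32.7, 33.1 and 33.3 CPM in SUR, 30.6, 32.2 and 31.8 CPM in LPS and 34.5, 28 and 30.7 CPM in CON libraries. Its LPS libraries lay inside the CON range (log2 fold change 0.02, SE 0.0829, edgeR adjusted p = 0.923).

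The OAS family split by branch. The OAS-like genes Oasl1 and Oasl2 rose, and the classical oligoadenylate synthetases, which activate the antiviral nuclease RNase L, did not. Oasl1, known in mice to restrain translation of Irf7 mRNA, stood at 34.4, 40.6 and 36 CPM in SUR, 350.5, 405 and 327 CPM in LPS and 53.8, 40.1 and 32.0 CPM in CON libraries. It rose 8.6-fold (log2 fold change 3.10, SE 0.184, edgeR adjusted p = 3.53e-05), the lowest adjusted p among the members, and fell 9.75-fold in SUR against LPS (edgeR adjusted p = 6.04e-05). Oasl2 rose 3.29-fold, to 24.4 ± 5.68 CPM in LPS against 7.41 ± 3.14 CPM in CON (edgeR adjusted p = 0.00497), and averaged 5.42 ± 1.58 CPM in SUR.

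Among the classical enzymes, Oas1a stood at 44.2, 40.3 and 39.8 CPM in SUR, 43.7, 46.2 and 41.8 CPM in LPS and 41.3, 42.8 and 40.8 CPM in CON libraries. All 9 values lay within a narrow range (LPS against CON log2 fold change 0.08, SE 0.0688, edgeR adjusted p = 0.557). Oas3, the large enzyme active on long RNA, had a log2 fold change of -0.16 in LPS against CON (edgeR adjusted p = 0.674). Oas2 stood at 17.0, 15.0 and 17.1 CPM in SUR, 13.1, 11 and 10.9 CPM in LPS and 15.1, 15.2 and 15.4 CPM in CON libraries, and every LPS library lay below every SUR and CON library. It fell in LPS against CON (log2 fold change -0.38, SE 0.104, edgeR adjusted p = 0.0334) and was 1.41-fold higher in SUR than in LPS (log2 fold change 0.49, SE 0.104, edgeR adjusted p = 0.0120). The fall lost its call in 9 of 19 alternatives, among them the libraries CON 1, CON 2, CON 3, LPS 2, LPS 3, SUR 1 and SUR 3 left out in turn (edgeR adjusted p up to 0.116, without LPS 3). The rise in SUR against LPS lost its call without LPS 2, LPS 3 or SUR 3 (edgeR adjusted p up to 0.0523, without SUR 3).

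Among 7 antiviral enzymes and restriction factors, Rsad2, Cmpk2 and Isg20 rose and Bst2, Ifitm3, Samhd1 and Rnf213 were not called. Rsad2, which encodes viperin, an enzyme that makes a chain-terminating nucleotide, stood at 6.23, 3.73 and 3.86 CPM in SUR, 115, 72.4 and 63.4 CPM in LPS and 13.4, 3.65 and 1.85 CPM in CON libraries. Library 1 was the highest of each group, and the LPS libraries lay above all others. It rose 13.2-fold (log2 fold change 3.73, SE 0.593, edgeR adjusted p = 0.00247, and 4.94 without CON 1) and fell 18.1-fold in SUR against LPS (edgeR adjusted p = 0.00214). Cmpk2, a mitochondrial nucleotide kinase that supplies substrate for viperin, rose 5.47-fold to 16.9 ± 6.29 CPM in LPS against 3.08 ± 1.45 CPM in CON (edgeR adjusted p = 0.00394), and averaged 3.05 ± 1.51 CPM in SUR. Isg20, an exonuclease, was scarce, at 1.05 ± 0.395 CPM in SUR, 2.78 ± 0.530 CPM in LPS and 1.05 ± 0.190 CPM in CON (SD, n = 3 each). It rose 2.63-fold (edgeR adjusted p = 0.0110), a call lost without CON 3 (0.0509), and fell 2.64-fold in SUR against LPS (edgeR adjusted p = 0.0120), a call lost without SUR 2 or SUR 3 (up to 0.0524).

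The restriction factors were already abundant in CON cells. Ifitm3, which blocks fusion of entering viruses, averaged 177.6 ± 29.6 CPM in SUR, 214 ± 34.8 CPM in LPS and 189.9 ± 26.3 CPM in CON, with the library numbered 1 highest in each group. It was not called in LPS against CON (log2 fold change 0.17, edgeR adjusted p = 0.558) or in SUR against LPS (-0.27, edgeR adjusted p = 0.295). Within numbers its LPS libraries were above CON by 0.21, 0.16 and 0.14, and with the replicate block it was called in both comparisons (0.00395 and 0.000201). Samhd1, which depletes nucleotides, averaged 185.9 ± 20.7 CPM in SUR, 188 ± 13.6 CPM in LPS and 207 ± 20.1 CPM in CON. It was called with the replicate block alone, lower in LPS than in CON (edgeR adjusted p = 0.0151) and lower in SUR than in CON (0.0290). Bst2, which tethers budding virions, had a log2 fold change of -0.09 in LPS against CON (edgeR adjusted p = 0.681). Rnf213, a giant ubiquitin ligase, had one of 0.15 (edgeR adjusted p = 0.539, and 0.0186 with the replicate block).

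Of the cytosolic RNA sensors, Ifih1 responded apart from its relatives. Ifih1 encodes MDA5, the sensor of long double-stranded RNA, and averaged 13.7 ± 3.05 CPM in SUR, 84.2 ± 29.4 CPM in LPS and 15.5 ± 6.19 CPM in CON (SD, n = 3 each). It rose 5.44-fold (log2 fold change 2.44, SE 0.323, edgeR adjusted p = 0.000943), by 2.38, 2.46 and 2.51 within numbers 1, 2 and 3, and fell 6.16-fold in SUR against LPS (edgeR adjusted p = 0.00105). Ddx58, which encodes RIG-I, averaged 11.2 ± 2.46 CPM in SUR, 13.7 ± 2.16 CPM in LPS and 11.1 ± 2.79 CPM in CON. Its groups overlapped (LPS against CON log2 fold change 0.31, edgeR adjusted p = 0.434). The fit with the replicate block called it, higher in LPS than in CON (0.0149) and lower in SUR than in LPS (0.0167). Dhx58, which encodes their regulator LGP2, had a log2 fold change of 0.21 in LPS against CON (edgeR adjusted p = 0.510). Eif2ak2, the kinase PKR that stops translation on sensing double-stranded RNA, stood at 60.2, 61.3 and 68.3 CPM in SUR, 58.3, 52.6 and 54.7 CPM in LPS and 65.6, 67.9 and 63.0 CPM in CON libraries. All LPS libraries lay below the others. It fell in LPS against CON (log2 fold change -0.25, SE 0.0713, edgeR adjusted p = 0.0426), and the call was lost in 9 of 19 alternatives, among them CON 1, CON 2, CON 3, LPS 2, LPS 3, SUR 1 and SUR 2 left out in turn (edgeR adjusted p up to 0.141, without LPS 2). In SUR against LPS its log2 fold change was 0.20 (edgeR adjusted p = 0.0972, and 0.0237 with the replicate block).

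The DNA-binding HIN-200 genes differed among themselves. Ifi203 averaged 85.3 ± 25.1 CPM in SUR, 201 ± 32.7 CPM in LPS and 73.6 ± 23.8 CPM in CON, a 2.73-fold rise (log2 fold change 1.45, SE 0.263, edgeR adjusted p = 0.00481). It fell 2.36-fold in SUR against LPS (edgeR adjusted p = 0.0118, and 0.0511 without SUR 3). Ifi204, which takes part in DNA sensing through STING, averaged 108 ± 13.7 CPM in SUR, 145.9 ± 23.4 CPM in LPS and 108 ± 17.5 CPM in CON. Its LPS and CON libraries overlapped and it was not called (log2 fold change 0.44, edgeR adjusted p = 0.0859), but within numbers the difference was 0.44, 0.43 and 0.45, and with the replicate block it was called (edgeR adjusted p = 9.44e-06). Ifi205 stood at 0, 0.296 and 0.234 CPM in SUR, 1.21, 1.43 and 0.924 CPM in LPS and 0 CPM in all 3 CON libraries. It was at least 6.63-fold higher in LPS than in CON, taking a floor of 3 counts per CON library (edgeR adjusted p = 0.00551). Its fall in SUR against LPS (edgeR adjusted p = 0.0328) lost its call when LPS 1, LPS 2, LPS 3, SUR 2 or SUR 3 was left out (up to 0.105, without LPS 2). Ifi205 met the filter on low counts through its LPS libraries, so its rise and its fall are not independent of the filter. Zbp1, the sensor of Z-form nucleic acid, had 1 count, in LPS 2, and Ifi44, an antiviral gene, had 1 count, in SUR 1.

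Of the PARP family, whose members attach ADP-ribose, Parp14 alone passed the test. It averaged 33.7 ± 3.90 CPM in SUR, 83.2 ± 9.34 CPM in LPS and 30.9 ± 6.61 CPM in CON, a 2.69-fold rise (log2 fold change 1.43, SE 0.158, edgeR adjusted p = 0.00037), and fell 2.47-fold in SUR against LPS (edgeR adjusted p = 0.000916). Parp9, the partner of Dtx3l, averaged 34.2 ± 0.784 CPM in SUR, 41.7 ± 4.74 CPM in LPS and 33.9 ± 2.93 CPM in CON. All its LPS libraries lay above all CON libraries by a small margin (log2 fold change 0.30, edgeR adjusted p = 0.0693). The fit with the replicate block called Parp9 higher in LPS than in CON (edgeR adjusted p = 0.00249) and lower in SUR than in LPS (0.00319, and 0.0790 without the block). Parp12, which acts in the Golgi apparatus, had a log2 fold change of -0.08 in LPS against CON (edgeR adjusted p = 0.542).

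The signalling members Stat2, Nmi, Ifi35 and Daxx, like Usp18, were not called in LPS against CON. Stat2, the subunit that brings an activation domain to the ISRE-binding complex, stood at 18.9, 18.5 and 19.5 CPM in SUR, 23.6, 22.0 and 24.0 CPM in LPS and 26.2, 24.0 and 24.4 CPM in CON libraries. Every SUR library lay below every LPS and every CON library. Stat2 fell in SUR against LPS (log2 fold change -0.29, SE 0.0744, edgeR adjusted p = 0.0267), and with upper-quartile scaling, with SUR and LPS fitted alone, on FPKM or without LPS 1, LPS 3, SUR 1, SUR 2 or SUR 3 that call was lost (adjusted p up to 0.238). Against CON its log2 fold change in SUR was -0.39 (SE 0.0741, edgeR adjusted p = 0.0795, and 0.0034 with the replicate block). In LPS against CON it was -0.10 (SE 0.0739, edgeR adjusted p = 0.456).

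Nmi and Ifi35, interacting proteins released as danger signals by macrophages, and Daxx, a histone chaperone and signalling adaptor, were among the 6 not-called members with the smallest response. Nmi stood at 11.2, 8.63 and 7.37 CPM in SUR, 11.6, 7.90 and 8.32 CPM in LPS and 10.8, 8.16 and 7.86 CPM in CON libraries. Ifi35 stood at 19.7, 12.4 and 12.2 CPM in SUR, 21.1, 13.3 and 13.3 CPM in LPS and 21.7, 12.2 and 13.4 CPM in CON libraries. Daxx stood at 36, 31.8 and 28.7 CPM in SUR, 37.8, 28.6 and 32.5 CPM in LPS and 38.8, 32.6 and 28.8 CPM in CON libraries. In all 3 genes the library numbered 1 was the highest of every group and the group means were close. Their log2 fold changes in LPS against CON were 0.05 (SE 0.214, edgeR adjusted p = 0.925) for Nmi, 0.01 (SE 0.288, edgeR adjusted p = 0.988) for Ifi35 and -0.02 (SE 0.143, edgeR adjusted p = 0.966) for Daxx.

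Of the remaining members, Slfn2 and Rtp4 rose and Ifi47, Xaf1 and Lgals3bp were not called. Slfn2, a regulator of quiescence in mouse lymphocytes and monocytes, stood at 119, 115 and 120.4 CPM in SUR, 415, 427 and 416 CPM in LPS and 86.3, 35.7 and 22.8 CPM in CON libraries. The LPS and the SUR libraries were each close together, and all SUR libraries lay above all CON libraries, which was so for no other strong responder. It rose 8.69-fold (log2 fold change 3.12, SE 0.409, edgeR adjusted p = 0.000907, and 3.85 without CON 1) and fell 3.55-fold in SUR against LPS (edgeR adjusted p = 0.0120). In SUR against CON its log2 fold change was 1.29 (SE 0.388, edgeR adjusted p = 0.277). That difference was called with the replicate block (edgeR adjusted p = 0.0127) and without CON 1 (2.01, edgeR adjusted p = 0.000809). Rtp4, a Golgi chaperone with antiviral activity, rose 7.07-fold to 21.7 ± 6.30 CPM in LPS against 3.05 ± 2.17 CPM in CON (edgeR adjusted p = 0.0025, log2 fold change 2.82, and 3.59 without CON 1) and averaged 1.84 ± 0.713 CPM in SUR. Lgals3bp, a secreted galectin-binding protein, stood at 97.9, 83.5 and 90.1 CPM in SUR, 100.7, 92.2 and 91.8 CPM in LPS and 106, 79.4 and 86.4 CPM in CON libraries. Its groups overlapped (LPS against CON log2 fold change 0.07, SE 0.110, edgeR adjusted p = 0.790). Ifi47, an interferon-inducible GTPase, and Xaf1, an antagonist of the apoptosis inhibitor XIAP, had log2 fold changes of 0.17 (edgeR adjusted p = 0.661) and 0.08 (0.875).

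**Figure D4:**
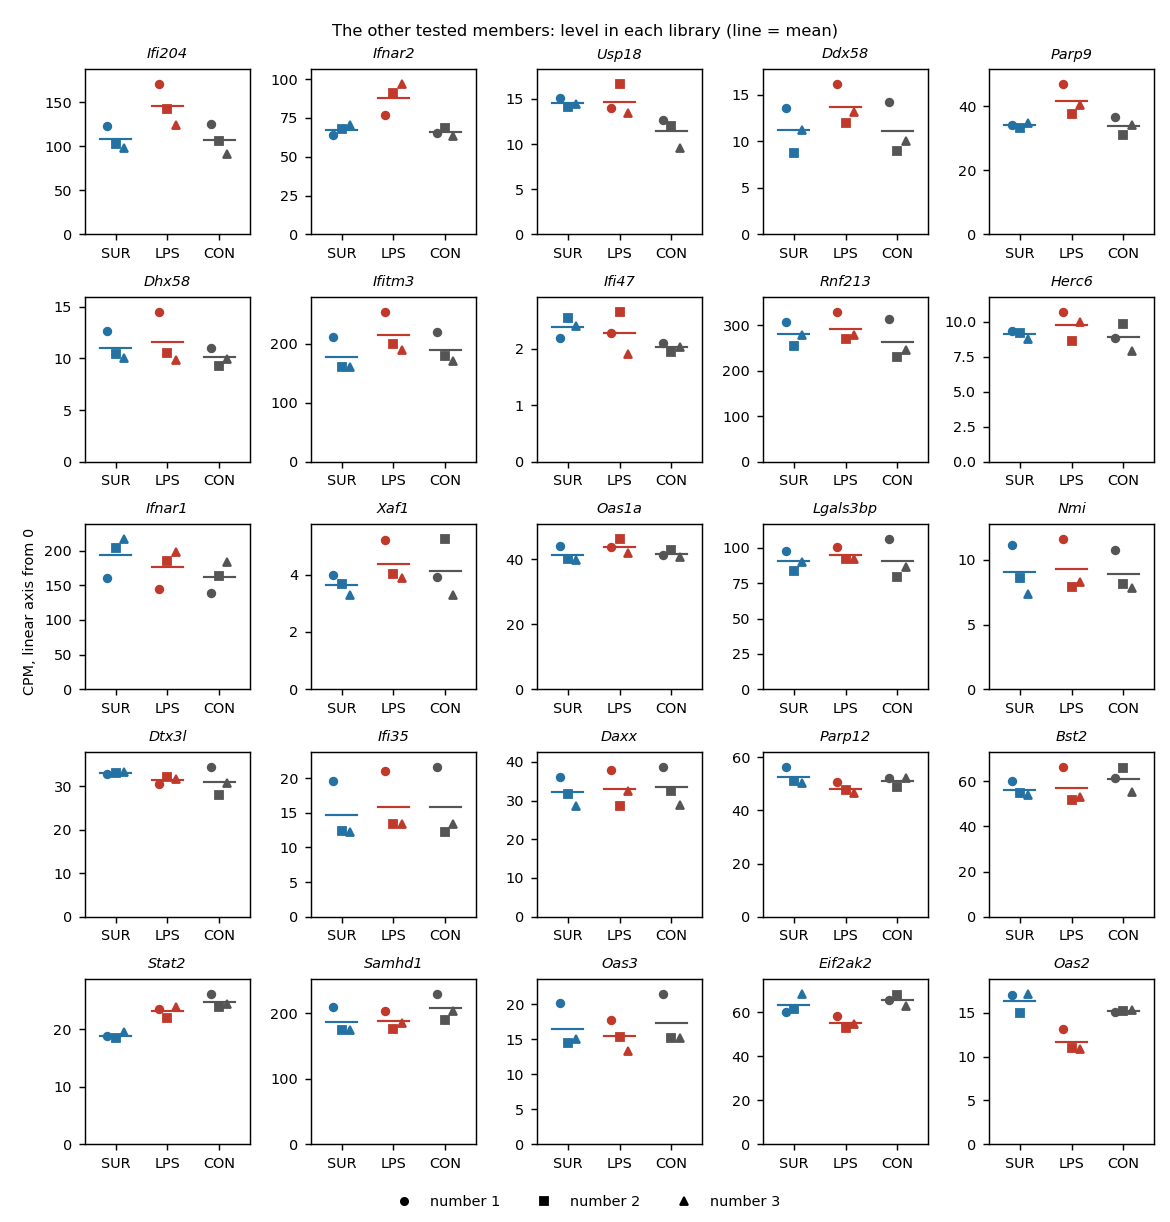
Level in each library (CPM, linear axis from 0) of the other 25 tested members in SUR, LPS and CON libraries, ordered by the response to LPS; symbols give the replicate number and lines the group mean. Most panels show 3 group means at nearly the same height, while Stat2 is lower in SUR and Oas2 and Eif2ak2 are lower in LPS.

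The share of each LPS rise that was absent in SUR was computed from group means as the difference of LPS over SUR divided by that of LPS over CON. Over the 17 members that rose its median was 100.9%, and it ran from 81.2% (Slfn2) to 111.7% (Oasl2). Within numbers 1, 2 and 3 the median was 106.5%, 100.3% and 98.0% (SD 4.39). A share over 100% means a SUR mean below the CON mean, which held for 12 of the 16 strong responders. The members below it were Slfn2, Ifi205 (85.1%), Ifi203 (90.9%) and Parp14 (94.6%), and Ifnar2 stood at 92.1%. Taken on the log2 scale, the shares spread more widely, from 37.1% (Ifi205, whose value depends on the fit) and 58.6% (Slfn2) to 128.7% (Ifit3), with a median of 104.4%. These shares have no test of their own, since both differences use the same LPS libraries.

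How SUR compared with CON depended on which CON library was taken. CON 1 lay above both CON 2 and CON 3 in 15 of the 16 strong responders, the exception being Ifi205 with 0 counts in all 3, and the levels were ordered CON 1, CON 2, CON 3 in 12. Among the 22 not-called members CON 1 was the highest in 16, and the share over all tested genes is not given here. The log2 excess of library 1 over the mean of libraries 2 and 3 had a median over the strong responders of 0.58 in SUR, 0.28 in LPS and 1.05 in CON, against 0.18, 0.27 and 0.22 over the not-called members. SUR 1 lay above CON 1 in 4 of the 16, SUR 2 above CON 2 in 8 and SUR 3 above CON 3 in 13, with median log2 differences of -0.56, 0 and 0.34. With all libraries 12 of the 16 had a log2 fold change below 0 in SUR against CON, and without CON 1 it was above 0 in 11 of these, Oasl2 being the exception. The SUR mean lay between the lowest and the highest CON library in 13 of the 16. CON 1 also lay apart from CON 2 and CON 3, among the SUR libraries, on the first principal component of all tested genes. What set CON 1 apart was not tested.

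**Figure D5:**
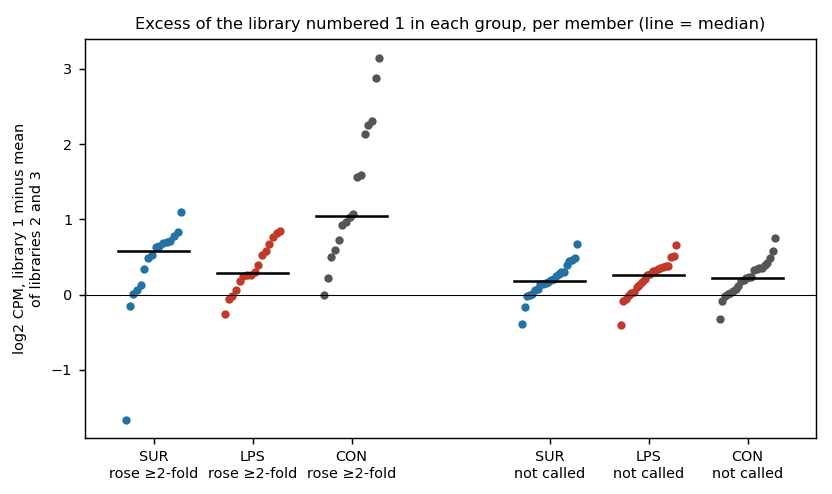
Log2 excess in CPM of library 1 over the mean of libraries 2 and 3 for each member (points) in SUR, LPS and CON, with medians as lines; strong responders on the left, not-called members on the right. The strong responders show a median of 1.05 in CON, and the medians of the not-called members lie near 0.2 in every group, with single members from -0.41 to 0.75.

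Several members are neighbours on a chromosome, and some of these clusters shared a call while others did not. By RefSeq's GRCm38.p6 annotation Rsad2 and Cmpk2 on chromosome 12 lie 12.7 kb apart and both rose. Ifit2 and Ifit3 on chromosome 19 lie 6.58 kb apart, Ifit1 follows after 51.9 kb, and all 3 rose. On chromosome 5, Oasl2 and Oasl1 lie 10.9 kb apart and both rose, whereas Oas2 and Oas3, which lie 3.21 kb apart, and Oas1a, 119 kb further, did not. Parp14 on chromosome 16 rose, while Dtx3l, 55.0 kb away, and Parp9, whose annotated span overlaps that of Dtx3l, were not called. Ifi203 and Ifi205 on chromosome 1 lie 69.1 kb apart and rose, and Ifi204, 153 kb from Ifi203, was not called. Ifnb1 occupies 88522025 to 88522794 of chromosome 4. Genes of the Ifit, Oas, Slfn and HIN-200 families have close copies and Dtx3l and Parp9 overlap, so their levels are uncertain where counting split or shared reads.

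On the per-length scale of FPKM the members not called had the higher median in CON and SUR, and the strong responders had it in LPS. The highest level among the members was that of Ifitm3, at 493 ± 87.8, 527 ± 97.1 and 516 ± 80.5 FPKM in SUR, LPS and CON (SD, n = 3 each). In LPS libraries Slfn2 followed at 282 ± 2.23 FPKM, Oasl1 at 177 ± 18.9 and Isg15 at 142 ± 14.2, against 35.8 ± 25.1, 22.8 ± 6.17 and 10.7 ± 10.2 FPKM in CON libraries. Slfn2, Oasl1 and Isg15 differed from each other beyond their SDs in LPS, whereas Oasl1 and Slfn2 in CON did not. The median FPKM over the 16 strong responders was 1.93 in SUR, 18.8 in LPS and 2.99 in CON. Over the 22 not-called members it was 13.0, 13.3 and 13.4. Ifnb1 reached 47.5 ± 12.6 FPKM in LPS, against 1.66 ± 2.28 in CON, and stood at 0.690 ± 0.394 in SUR.

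Genes that lead from TLR4 and cytosolic sensors to interferon-beta were partly induced themselves. Of 26 tested genes of this list 13 rose and 5 fell in LPS against CON (median log2 fold change 0.35), where 8.98% of all tested genes rose and 9.36% fell. In SUR against LPS 2 rose and 10 fell, where 9.29% and 7.93% of all tested genes did. The counts with the replicate block were 17 and 6 in LPS against CON (20.1% and 21.7% of all tested genes) and 6 and 12 in SUR against LPS (22.6% and 22.7%). Ticam1, which encodes TRIF, rose 2.08-fold (edgeR adjusted p = 0.000863) and fell in SUR against LPS (log2 fold change -1.09, edgeR adjusted p = 0.00109). Irf3, Irf7 and Tbk1 were not called in LPS against CON, with log2 fold changes of -0.23, 0.03 and 0.32. Tbk1 (edgeR adjusted p = 0.0679) was called with the replicate block, higher in LPS than in CON (edgeR adjusted p = 0.000202) and lower in SUR than in LPS (0.000342). The largest rises were of Prdm1, a repressor of Ifnb1 transcription (log2 fold change 4.21), Cd14, the LPS co-receptor (2.94), the stress factor gene Atf3 (2.81), Irf1 (1.98), Jun (1.63) and Ikbke, a kinase related to TBK1 (1.53). Of these, Irf1 and Jun were not called in SUR against LPS (edgeR adjusted p = 0.813 and 0.457), and the others fell. Irf1 averaged 175.8 ± 48.8 CPM in SUR, 158 ± 29.0 CPM in LPS and 40.0 ± 18.2 CPM in CON, and it was the gene of this list called in SUR against CON (log2 fold change 2.14, edgeR adjusted p = 0.0393). In that comparison 9 of the 26 were called higher and 1 lower with the replicate block, where 7.37% and 4.18% of all tested genes were. Prdm1, Cd14, Jun and Ikbke were among those called higher in SUR than in CON in that fit (edgeR adjusted p = 0.000294, 0.00471, 0.00092 and 0.00181).

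A list for interferon receptor signalling also held chains of other receptors (Ifngr1, Ifngr2 and Il10rb) and feedback genes of cytokine receptors in general. Of its 19 tested genes, 4 rose and 0 fell in LPS against CON (10 and 3 with the replicate block). In SUR against LPS 0 of them rose and 4 fell (2 and 8 with the replicate block). Of all tested genes 8.98% rose and 9.36% fell in LPS against CON (20.1% and 21.7% with the replicate block). In SUR against LPS 9.29% rose and 7.93% fell (22.6% and 22.7% with the replicate block). Jak1, Tyk2 and Irf9 were not called, with log2 fold changes of 0.23, 0.18 and -0.35. With the replicate block Jak1 and Tyk2 were called higher (edgeR adjusted p = 0.000928 and 0.0116) and Irf9 lower (0.0162) in LPS than in CON, and Jak1 and Tyk2 lower in SUR than in LPS (0.00104 and 0.0436). The rises were of Socs3, Cish, Jak2 and Ifngr1, the genes of feedback inhibitors of cytokine receptors, a receptor kinase and an interferon-gamma receptor chain, with log2 fold changes of 3.47, 3.10, 1.1 and 1.03. Socs1, an inhibitor of interferon receptor signalling, had a log2 fold change of 0.69 (edgeR adjusted p = 0.234, and 0.0257 with the replicate block). In SUR against LPS Cish, Jak2 and Ifngr1 fell and Socs3 was not called (edgeR adjusted p = 0.346). Socs3 averaged 165.5 ± 52.9 CPM in SUR, 242 ± 54.9 CPM in LPS and 21.9 ± 11.3 CPM in CON, and with Ifngr1 it was called higher in SUR than in CON (edgeR adjusted p = 0.0225 and 0.0495). These were 2 of the 19, with 0 called lower, where 0.39% and 0.0355% of all tested genes were called higher and lower. With the replicate block 5 were called higher and 2 lower, where 7.37% and 4.18% of all tested genes were. Cish was also called, with the replicate block, higher in SUR than in CON (edgeR adjusted p = 0.00825, and 0.155 without it).

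Of 68 tested further interferon-stimulated genes outside the set, 19 rose and 5 fell in LPS against CON, with a median log2 fold change of 0.08, where 8.98% of all tested genes rose and 9.36% fell. Of the 68, 6 rose and 17 fell in SUR against LPS, where 9.29% and 7.93% of all tested genes did. The replicate block gave 23 rises and 13 falls in LPS against CON, and 12 rises and 26 falls in SUR against LPS, where between 20.1% and 22.7% of all tested genes were called in each direction. The largest rises were of Cxcl10 (log2 fold change 4.75), Ifit3b (4.33), Ccl5 (4.06), Helz2, a nuclear receptor coactivator (2.91), Cd69 (2.83) and Ifi211, a HIN-200 gene (1.85). Each of these fell in SUR against LPS apart from Cd69, a marker of leukocyte activation, which averaged 11.9 ± 1.30 CPM in SUR, 8.48 ± 2.32 CPM in LPS and 1.18 ± 1.16 CPM in CON. It was called higher in SUR than in CON (log2 fold change 3.31, edgeR adjusted p = 0.0393). Of 20 other interferon genes, Ifna6 and Ifnz had a value, and their highest group mean was 0.0861 CPM, for Ifnz in LPS.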

How the data were processed

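Messenger RNA of 9 MH-S libraries was sequenced with an MGIEasy kit. The submitters' processing notes name HISAT2 2.0.4 and GRCm38 (mm10); for the counting tool and its use of strand, nothing was given in the sources used here. The authors deposited expected counts, FPKM and TPM per gene and library in 1 table, per the file headers, and 93.4% of the count values were whole. TPM was not used for a test.

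Counts were rounded and fitted with edgeR 4.0.16 in R 4.3.3 (quasi-likelihood test, TMM scaling, filterByExpr with a minimum count of 10, all 9 libraries, 1 term per group). Benjamini-Hochberg adjustment ran over the 11281 tested genes with a threshold of 0.05, and 3490 genes were not tested. SEs are the absolute log2 fold change over the root of F. Log2 differences within numbers used a prior count of 2. The model code was tested on simulated counts. Alternatives used DESeq2 1.42.0 and limma 3.58.1.

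Libraries with the same replicate number deviated together, with correlations of 0.435 to 0.801 between groups, all over 0.1, so the numbers were taken to pair the libraries. The highest correlation between different numbers was 0.437, between LPS 3 and SUR 2, so libraries 2 and 3 are less clearly told apart than library 1 from both. Every pair of a library 2 with a library 3 also correlated over 0.1, the lowest at 0.347. Deviations were taken from group means, so a shift of library 1 alone makes libraries 2 and 3 deviate together. The check therefore sets library 1 apart and does not settle how libraries 2 and 3 pair. The labels do not say what a number marks.

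Values in every library were given for Ifnb1, its receptor genes, Stat2, the 8 largest rises with LPS, the members lower in LPS and the 6 members not called with the smallest response. Members, gene lists and motifs were chosen with earlier results of these data known.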

Additional observations from a re-analysis of the deposited data

How the results depend on the processing

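Each of 41 members was refitted under 19 alternatives in 3 comparisons. Of 2329 such checks 2241 kept their call, 47 lost it, 41 gained one and 0 reversed. In LPS against CON 15 to 24 members were called higher. The 18 members called lower in SUR against LPS became 22 with the replicate block, 15 on FPKM, 15 without LPS 3 and 14 without SUR 2 or SUR 3. The 2 called lower in LPS against CON became 0 without a filter on low counts and 0 with only the groups compared fitted, and 0 to 2 with single libraries left out. In SUR against LPS the 1 member called higher became 2 with upper-quartile scaling, 3 with the replicate block, 3 on log2(FPKM + 1), 3 on log2(FPKM + 0.1) and 2 without the libraries numbered 1, and 0 to 1 with single libraries left out. In SUR against CON the 0 called higher became 3 with the replicate block and 2 without the libraries numbered 1, and 0 to 1 with single libraries left out; the 0 called lower became 1 with DESeq2, 2 with the replicate block and 1 without the libraries numbered 1. Calls of single members that the replicate block changed stand beside their values above, and it changed no other member's call. The causes were not tested. The median share of the LPS rise absent in SUR stayed between 97.1% and 104.4%. On FPKM the median gene shifted by -0.13 to -0.14 (log2) in LPS against CON and by 0.13 to 0.14 in SUR against LPS. Ifnar2 kept its call in LPS against CON with upper-quartile and RLE scaling and had a log2 fold change of 0.04 on FPKM, where measure and test both differ. Depth limits Ifi205, Isg20, and Ifnb1 in SUR and CON, which rest on few counts.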
